A study of Homo sapiens with 8 samples.

Results

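The ONECUT family comprises the transcription factor genes ONECUT1, also called HNF6, ONECUT2 and ONECUT3, and all 3 human members were examined out of 20033 protein-coding genes in GENCODE release 44. They were taken by name, and every H3K27ac peak in each gene body and the 50 kb on either side was described, peak by peak and library by library. H3K27ac, acetylation of histone H3 at lysine 27, was profiled by chromatin immunoprecipitation sequencing (ChIP-seq) in pancreatic progenitors (PPs) made by differentiation of MEL1, a widely used line of human embryonic stem cells that, per the study's methods, carries a GFP reporter at INS (MEL1 INS GFP/W). M stands for mega throughout. All PPs were held in EF6 medium, which contains EGF, bFGF and the TGFβ inhibitor 616452, and received either DMSO or 1 μM I-BET151, a small-molecule inhibitor of the BET bromodomains, for 7 days. The 8 libraries comprised 2 DMSO and 2 I-BET151 H3K27ac libraries, each with its own peak list, and 4 inputs that served the peak calling. The labels do not say whether replicates came from separate cultures, so p-values measure only the spread between these libraries, which may be technical.

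ONECUT factors bind DNA through a single cut domain together with a divergent homeodomain. ONECUT1 is expressed early in the developing pancreas, where it acts upstream of NEUROG3, the gene that starts endocrine differentiation, and it is later kept in duct cells. ONECUT2 is expressed in the same endoderm and shares functions with ONECUT1, whereas ONECUT3 is best known from the nervous system. H3K27ac marks active promoters and enhancers, and BET proteins, the targets of I-BET151, bind acetylated lysines.

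The 4 lists held 13606 and 14248 peaks in DMSO and 12887 and 12312 in I-BET151, and the depths worked out from them ran from 7.76 to 9.84 M ChIP reads and from 2.67 to 3.04 M input reads. DMSO replicate 2 was the deepest library. In every list, 7 of 8 pancreatic progenitor markers had a peak within 3 kb of their start (PTF1A had none), against 0 of 7 endocrine, 0 of 2 pluripotent and 0 of 4 neural markers. Of the other types the sample could hold, hepatic markers had 1 of 4 in every list, mesenchymal markers 0 or 1 of 4, and intestinal markers 1 or 2 of 2, with CDX2 in every list. The progenitor markers together were covered over 20.9 and 21.1 kb in DMSO, compared with 21.7 and 23.5 kb under I-BET151, and the part of this in the ONECUT values was not tested. In a bulk population, fewer acetylated cells and less acetylation per cell cannot be told apart.

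The 3 loci held 55 peaks, which merged into 18 regions wherever peaks of any library shared at least 1 bp. ONECUT1 had 24 peaks in 9 regions, ONECUT2 24 peaks in 5 regions and ONECUT3 7 peaks in 4 regions. A region is termed gained if it was called in both I-BET151 lists and in neither DMSO list, and lost in the reverse case. Of the 18 regions, 4 were gained (3 at ONECUT1 and 1 at ONECUT3), 2 were lost (both at ONECUT3), 8 were called in all 4 lists (3 at ONECUT1 and 5 at ONECUT2) and 4 were called in 1 or 3 lists. Across the genome, 2.81% of 15752 regions were gained, 8.6% were lost and 65.5% were called in all 4 lists. Absence from a list means only that no peak passed the threshold of the peak caller. Distances at the ONECUT loci run from the start of each gene's MANE Select transcript, its reference transcript. At ONECUT1 this start is chr15:52790336, and the annotated gene body begins farther upstream, at −742 bp. The windows below, 201 bases of the plus strand of hg38 centred on the strongest summit, are shown because they are the regions whose call separated the groups, together with the ONECUT2 upstream region, whose summit differed most in reads per M. Capitals mark a match to any of 7 searched motifs.
ONECUT1 −15.4 kb, gained (chr15:52805649-52805849): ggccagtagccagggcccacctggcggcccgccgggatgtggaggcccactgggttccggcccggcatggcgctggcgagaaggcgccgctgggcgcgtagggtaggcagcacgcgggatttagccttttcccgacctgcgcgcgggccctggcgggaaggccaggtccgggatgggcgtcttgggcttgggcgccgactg
ONECUT1 −14.3 kb, gained (chr15:52804495-52804695): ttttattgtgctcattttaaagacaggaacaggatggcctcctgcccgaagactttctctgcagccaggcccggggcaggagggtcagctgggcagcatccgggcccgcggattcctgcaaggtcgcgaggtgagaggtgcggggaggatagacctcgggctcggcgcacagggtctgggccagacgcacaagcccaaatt
ONECUT1 +6.24 kb, gained (chr15:52783997-52784197): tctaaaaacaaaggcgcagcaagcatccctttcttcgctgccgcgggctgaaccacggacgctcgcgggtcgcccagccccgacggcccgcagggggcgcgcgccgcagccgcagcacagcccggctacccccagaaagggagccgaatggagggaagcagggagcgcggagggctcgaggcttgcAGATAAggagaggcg
ONECUT2 −6.49 kb, called in all 4 (chr18:57428784-57428984): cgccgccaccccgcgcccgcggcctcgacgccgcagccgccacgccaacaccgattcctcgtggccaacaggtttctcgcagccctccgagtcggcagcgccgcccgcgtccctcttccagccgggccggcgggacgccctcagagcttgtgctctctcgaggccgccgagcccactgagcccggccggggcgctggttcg
ONECUT3 −27.5 kb, gained (chr19:1725934-1726134): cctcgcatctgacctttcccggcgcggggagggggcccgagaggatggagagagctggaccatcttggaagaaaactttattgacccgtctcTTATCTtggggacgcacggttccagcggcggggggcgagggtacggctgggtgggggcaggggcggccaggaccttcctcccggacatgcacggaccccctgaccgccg
ONECUT3 −6.55 kb, lost (chr19:1746854-1747054): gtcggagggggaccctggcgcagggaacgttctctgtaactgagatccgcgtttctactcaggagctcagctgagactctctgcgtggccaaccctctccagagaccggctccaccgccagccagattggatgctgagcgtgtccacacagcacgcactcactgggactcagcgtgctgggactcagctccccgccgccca
ONECUT3 −5.08 kb, lost (chr19:1748321-1748521): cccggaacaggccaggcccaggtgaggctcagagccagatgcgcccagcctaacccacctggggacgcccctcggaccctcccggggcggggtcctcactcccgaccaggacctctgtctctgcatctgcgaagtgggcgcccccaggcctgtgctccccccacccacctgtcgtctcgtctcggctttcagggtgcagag

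ONECUT1 (ENSG00000169856.9, hg38 chr15:52755053-52791078, minus strand) had H3K27ac peaks of larger total length and greater height in PPs treated with I-BET151. In DMSO replicates 1 and 2, peaks covered 5.226 and 4.697 kb of the locus, compared with 7.862 and 8.01 kb in I-BET151 replicates 1 and 2. The I-BET151 libraries both lay above the DMSO libraries. The means were 4.96 ± 0.37 kb and 7.94 ± 0.10 kb (SD, n = 2 each), a difference of 2.97 kb (exact permutation p = 0.33, two-sided, which is the lowest p that groups of 2 libraries allow). Of 15190 protein-coding loci with a peak, 12.5% had both I-BET151 libraries above both DMSO libraries and 44.4% had both below, and the median locus difference was −0.094 kb. The number of peaks at ONECUT1 was 4 in each DMSO list and 8 in each I-BET151 list (difference 4, exact permutation p = 0.33), and it was 3 and 4 against 5 and 5 with −log10 q of at least 10 (difference 1.5). Among all these loci ONECUT1 stood at percentiles 93.9 and 92.0 of covered length in DMSO and 98.9 and 99.2 in I-BET151. Restricting the window to the gene body reduced the difference to 1.24 kb, with 0.331 and 0 kb outside the body in DMSO against 1.753 and 2.046 kb in I-BET151. Keeping only peaks with −log10 q of at least 10 left 1.52 kb.

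**Figure D1:**
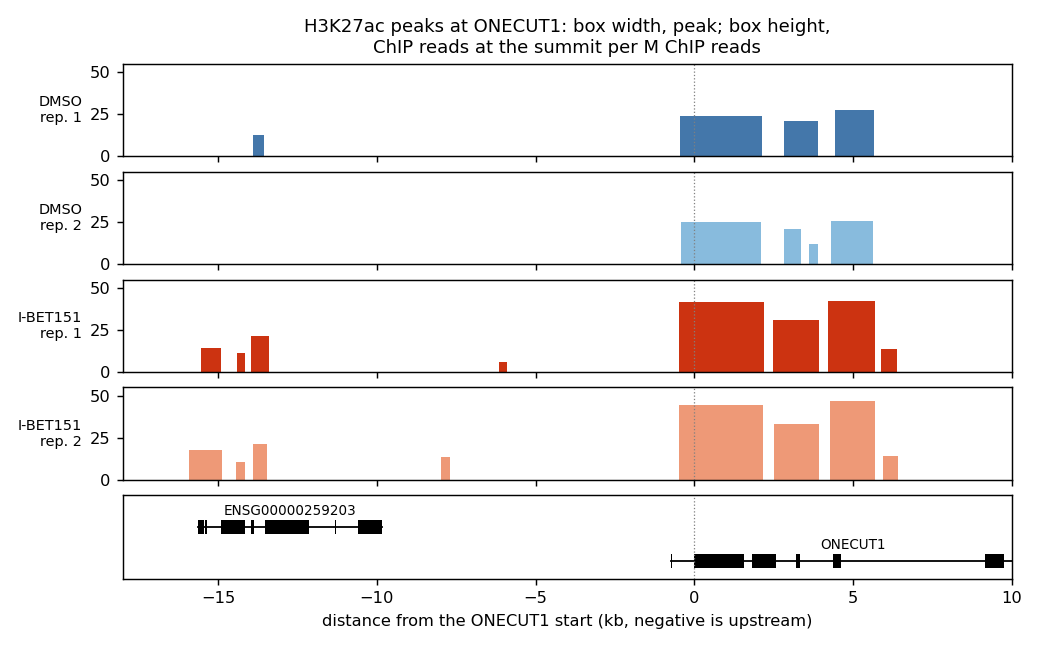
H3K27ac peaks at ONECUT1 in the 4 libraries, plotted by distance from the gene's start in kb (negative is upstream), with box width as the peak and box height as ChIP reads at the summit per M ChIP reads. Exons of ONECUT1 and of the lncRNA gene ENSG00000259203 are drawn below. The 3 blocks at the start of the gene were called in every library and reach higher in I-BET151, and the upstream cluster holds 1 DMSO peak, at −13.7 kb in replicate 1.

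The block at the ONECUT1 start (chr15:52788159-52790829) had its summit at +0.57 kb, in the coding part of the MANE Select first exon. Its summits held 23.7 and 25.3 ChIP reads per M in DMSO and 41.9 and 44.8 in I-BET151. The I-BET151 summits were on average 1.77 times as high, and the 95% Poisson intervals of the 2 groups, which cover counting error only, did not overlap (20.5 to 28.7 against 37.5 to 49.7). The fold enrichment over the local input, as called by the authors' peak caller, was 3.66 and 7.32 in DMSO and 11.7 and 10.0 in I-BET151. The width of the block differed less, being 2587 and 2525 bp in DMSO against 2651 and 2658 bp.

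Both blocks with summits in introns, which also span annotated exons of ONECUT1, behaved similarly in summit height. At +3.11 kb the summits held 20.7 and 21.2 reads per M in DMSO and 31.1 and 33.1 in I-BET151, with covered lengths of 1067 and 839 bp against 1464 and 1401 bp. In the block named +5.40 kb after its strongest summit they held 27.8 and 25.8 against 42.0 and 46.8 reads per M, and the covered length was 1241 and 1333 bp against 1472 and 1414 bp. The summits of the latter lay 4845 and 4842 bp from the start with DMSO, compared with 5404 and 5393 bp for I-BET151, so its heights were read at different positions. In both blocks the 2 groups were separate in height and in length. Fold enrichment overlapped between the groups in both, being 14.5, 10.8, 14.3 and 13.3 at +5.40 kb in DMSO replicates 1 and 2 and I-BET151 replicates 1 and 2. Averaged over the 3 blocks on a log2 scale, the summit height was 4.58 and 4.59 in DMSO and 5.25 and 5.36 in I-BET151, a difference of 0.72 (exact permutation p = 0.33), where the median over 10299 regions called in all 4 lists was 0.00. On the log2 fold scale the difference was 0.43 (2.85 and 3.29 against 3.60 and 3.41, exact permutation p = 0.33), and it fell to 0.21 without DMSO replicate 1 and rose to 0.65 without DMSO replicate 2. The median log2 fold difference over all such regions was 0.08.

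The gained regions of ONECUT1 were weak. One lay in the gene, in an intron at +6.24 kb (chr15:52783918-52784466), with 13.7 and 14.4 reads per M and fold enrichments of 3.04 and 3.59 in I-BET151. The other two lay upstream, at −15.4 kb (chr15:52805219-52806254, 14.4 and 17.7 reads per M) and at −14.3 kb (chr15:52804474-52804766, 11.5 and 10.8 reads per M). Over all gained regions of the 3 loci, the peaks ranked at a median of 89.0% down their lists by significance, against 21.4% for regions called in every library. The region at −14.3 kb lies in, and that at −15.4 kb spans the start of, the lncRNA gene ENSG00000259203 (chr15:52800161-52805972, minus strand), whose start lies 15.64 kb upstream of that of ONECUT1. A further region of this cluster, at −13.7 kb, was called in DMSO replicate 1 with 12.6 reads per M and in both I-BET151 libraries with 21.7 and 21.3, and it was not called in DMSO replicate 2. Single-library peaks were found at −7.81 kb in I-BET151 replicate 2 and at −6.01 kb in I-BET151 replicate 1.

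The count of gained regions depended on the threshold and on how peaks were merged. With −log10 q of at least 10, none of the 3 was called in both I-BET151 libraries, and the count of 1 then came from the region at −13.7 kb, whose DMSO peak dropped out. The upstream regions were separated by 452 and 181 bp and the intronic one lay 190 bp from its neighbour, so that merging peaks within 500 bp joined each to a region called in DMSO and left 0. The neighbouring region was called in 1 DMSO library upstream and in both DMSO libraries in the gene.

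**Figure D2:**
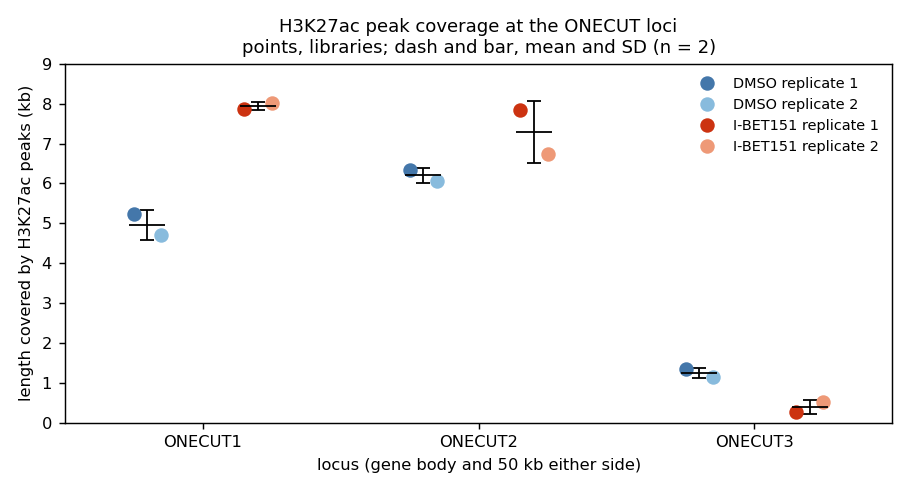
Length covered by H3K27ac peaks (kb) in the gene body and 50 kb either side of ONECUT1, ONECUT2 and ONECUT3, with a point for each library and the mean and SD of each group (n = 2). The I-BET151 points lie above the DMSO points at ONECUT1 and ONECUT2 and below them at ONECUT3.

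ONECUT2 (ENSG00000119547.6, hg38 chr18:57435374-57491298, plus strand) carried 5 regions that were all called in every library, with a smaller difference between groups that lay mostly upstream of the gene. The DMSO libraries had 6.327 and 6.071 kb under peaks and the I-BET151 libraries 7.832 and 6.736 kb. The groups did not overlap, but the I-BET151 libraries differed from each other by more than the lower of them differed from DMSO. The means were 6.20 ± 0.18 and 7.28 ± 0.77 kb (SD, n = 2 each), a difference of 1.08 kb (exact permutation p = 0.33) that was 0.537 kb without I-BET151 replicate 1 and 1.63 kb without I-BET151 replicate 2. With 100 kb on either side it was 2.5 kb. On the gene body alone the covered lengths overlapped, at 5.258 and 5.144 kb for DMSO against 5.733 and 4.924 kb for I-BET151, and the difference was 0.128 kb. Outside the body it was 1.069 and 0.927 kb against 2.099 and 1.812 kb. The number of peaks was 6 and 6 in DMSO and 5 and 7 in I-BET151 (difference 0, exact permutation p = 1), because neighbouring peaks were called joined or split in different libraries.

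The largest difference at ONECUT2 was 6.49 kb upstream of its start, in an exon of the lncRNA gene ENSG00000277837 (chr18:57427133-57432112, plus strand). There the summits held 19.7 and 19.5 reads per M in DMSO and 39.4 and 42.2 in I-BET151, a ratio of 2.08, the highest of the 8 ONECUT regions called in all 4 lists. Of this region (chr18:57427524-57429183), 690 and 573 bp lay under peaks in DMSO, compared with 1655 and 1435 bp in I-BET151. Fold enrichment was 2.65 and 4.11 against 7.11 and 5.16. All these measures separated the 2 groups.

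Closer to the gene the differences were smaller. The small region at −0.61 kb (chr18:57434536-57434971) held 17.3 and 18.5 reads per M in DMSO and 26.3 and 24.9 in I-BET151, with fold enrichments of 5.97 and 4.54 against 10.1 and 7.48. In the first coding exon, at +1.18 kb, the summits held 43.1 and 39.9 against 46.0 and 49.0 reads per M, a ratio of 1.14. The tallest summits were lower throughout DMSO replicate 2, with a 95th percentile of 40.8 reads per M against 47.2 to 49.4 in the other lists. The part of this in the heights at +1.18 and +2.79 kb was not tested. The intronic region at +2.79 kb overlapped between groups, with 45.9 and 37.1 reads per M in DMSO and 46.3 and 45.8 in I-BET151. The widest region, named +4.37 kb (chr18:57439124-57441746), was called as a pair of peaks in both DMSO libraries and in I-BET151 replicate 2, and as 1 peak in I-BET151 replicate 1. The summit farther into the gene, 5241 to 5291 bp from the start in all libraries, held 33.5 and 33.8 reads per M in DMSO and 41.1 and 44.3 in I-BET151. Its fold enrichments overlapped, being 5.72 and 8.25 in DMSO and 7.00 and 7.44 in I-BET151. The nearer summit held 26.6 and 26.5 reads per M in DMSO and 29.6 in I-BET151 replicate 2, with fold enrichments of 9.11, 14.5 and 8.88. In I-BET151 replicate 1 the joined peak covers this position, but its list gives only 1 summit per peak, so no height is known there.

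Averaged over the 5 regions of ONECUT2, log2 summit reads per M were 4.89 and 4.82 in DMSO and 5.29 and 5.33 in I-BET151, a difference of 0.45 (exact permutation p = 0.33). The log2 fold was 2.64 and 2.86 against 3.03 and 2.93, a difference of 0.23 (exact permutation p = 0.33) that fell to 0.12 without DMSO replicate 1. Counting ONECUT1 and ONECUT2 together, 7 of 8 regions called in every list had both I-BET151 libraries above both DMSO libraries in reads per M, against 29.8% of 10299 regions genome-wide. The exception was the ONECUT2 region at +2.79 kb. Before scaling to depth, the ONECUT2 regions at +1.18 and +4.37 kb also overlapped in summit reads. At +1.18 kb they numbered 343 and 393 in DMSO against 357 and 394 in I-BET151. At +4.37 kb they numbered 267 and 333 against 319 and 356. The highest summit of each list held 478 to 500 reads, and the part of this in the count was not tested. In covered length 5 of the 8 regions lay above, against 16.0% of 10317 regions. In fold enrichment 3 of 8 lay above, against 25.4%, and 1 lay below, the ONECUT2 region at +4.37 kb, where the highest folds of the libraries came from different peaks. The genome-wide share of regions lying below in fold was not worked out. These regions lie in only 2 loci and are not independent of each other.

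The first 250 bases upstream of both MANE Select starts showed a different arrangement of the mark at the 2 genes. At ONECUT1 all 250 bases lay inside a peak in each of the 4 libraries. They also lay inside the annotated gene body, which begins at −742 bp, so another annotated start lies upstream of them. At ONECUT2 they fell in the gap of 394 bp between the regions at −0.61 and +1.18 kb, with 0 bases covered in 3 libraries and 8 bases in I-BET151 replicate 1. Both promoter sequences, from RefSeq on GRCh38.p14, are given 5′ to 3′ in the direction of transcription because they sit under these peaks and in this gap. Neither contained a match to a searched motif, so no base is in capitals.
ONECUT1 promoter (chr15:52790337-52790586, minus strand): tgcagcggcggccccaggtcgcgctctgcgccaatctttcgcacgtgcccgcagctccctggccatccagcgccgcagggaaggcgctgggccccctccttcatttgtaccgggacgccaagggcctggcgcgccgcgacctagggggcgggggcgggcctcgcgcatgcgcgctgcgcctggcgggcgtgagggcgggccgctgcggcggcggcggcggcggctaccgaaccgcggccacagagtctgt
ONECUT2 promoter (chr18:57435124-57435373, plus strand): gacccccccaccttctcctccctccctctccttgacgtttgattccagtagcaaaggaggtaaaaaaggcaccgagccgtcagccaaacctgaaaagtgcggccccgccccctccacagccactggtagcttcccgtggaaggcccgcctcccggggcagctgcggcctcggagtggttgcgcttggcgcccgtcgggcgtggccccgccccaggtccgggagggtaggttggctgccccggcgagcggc

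**Figure D3:**
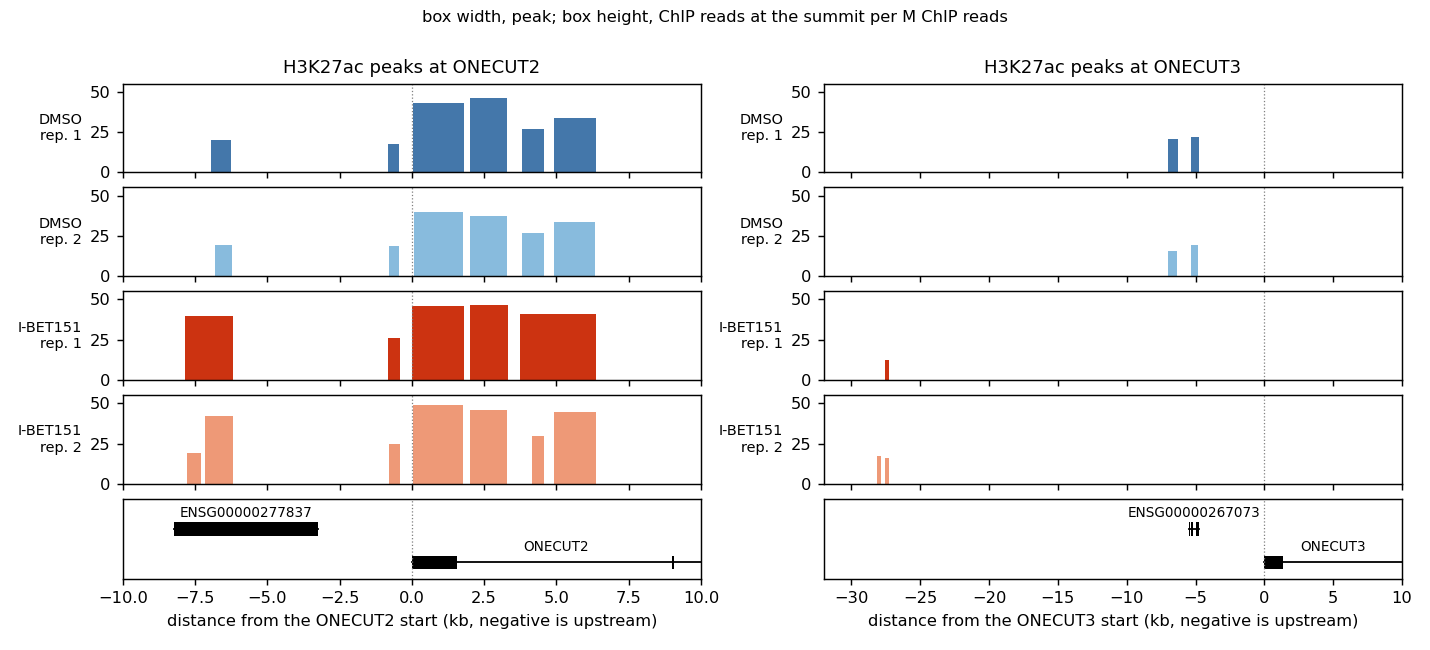
H3K27ac peaks at ONECUT2 (left) and ONECUT3 (right) in the 4 libraries by distance from each gene's start in kb (negative is upstream), with box width as the peak and box height as ChIP reads at the summit per M ChIP reads. The block upstream of ONECUT2 is wider and higher in I-BET151, and the body of ONECUT3 holds no peak in any library.

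ONECUT3 (ENSG00000205922.5, hg38 chr19:1753506-1780988, plus strand) had no H3K27ac peak on its gene body in any of the 4 libraries and differed between groups in the opposite direction. With DMSO, 1.336 and 1.15 kb of the locus lay under peaks, compared with 0.261 and 0.509 kb with I-BET151. Both I-BET151 libraries lay below both DMSO libraries, as at 44.4% of loci. The means were 1.24 ± 0.13 and 0.385 ± 0.175 kb (SD, n = 2 each), a difference of −0.858 kb (exact permutation p = 0.33). The number of peaks was 2 and 2 in DMSO and 1 and 2 in I-BET151 (difference −0.5, exact permutation p = 1). By covered length the locus stood at percentiles 46.8 and 40.5 in DMSO and 4.94 and 18.4 in I-BET151, far below the other two members in every library.

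Within ONECUT3, different regions were called in the 2 groups. Both lost regions lay shortly upstream, at −6.55 kb (chr19:1746483-1747220) with 20.7 and 15.7 reads per M and fold enrichments of 7.11 and 6.61 in DMSO, and at −5.08 kb (chr19:1748187-1748785) with 22.0 and 19.3 reads per M and fold enrichments of 4.24 and 3.79. The latter overlaps the lncRNA gene ENSG00000267073 (chr19:1748056-1748745, plus strand). The gained region lay much farther away, at −27.5 kb (chr19:1725949-1726218), with 12.6 and 15.9 reads per M and fold enrichments of 3.37 and 3.95 in I-BET151. A further peak at −28.0 kb was called in I-BET151 replicate 2 alone. Both lost regions remained with −log10 q of at least 10 whereas the gained region did not. Limited to 10 kb on either side, the difference in covered length was −1.24 kb, since the I-BET151 lists then held no peak. With 100 kb it was −2.0 kb, but that window also takes in the start of the neighbouring gene REXO1. The peaks it adds were not described. No region at ONECUT3 was called in all 4 libraries, so summit heights could not be compared between groups.

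**Figure D4:**
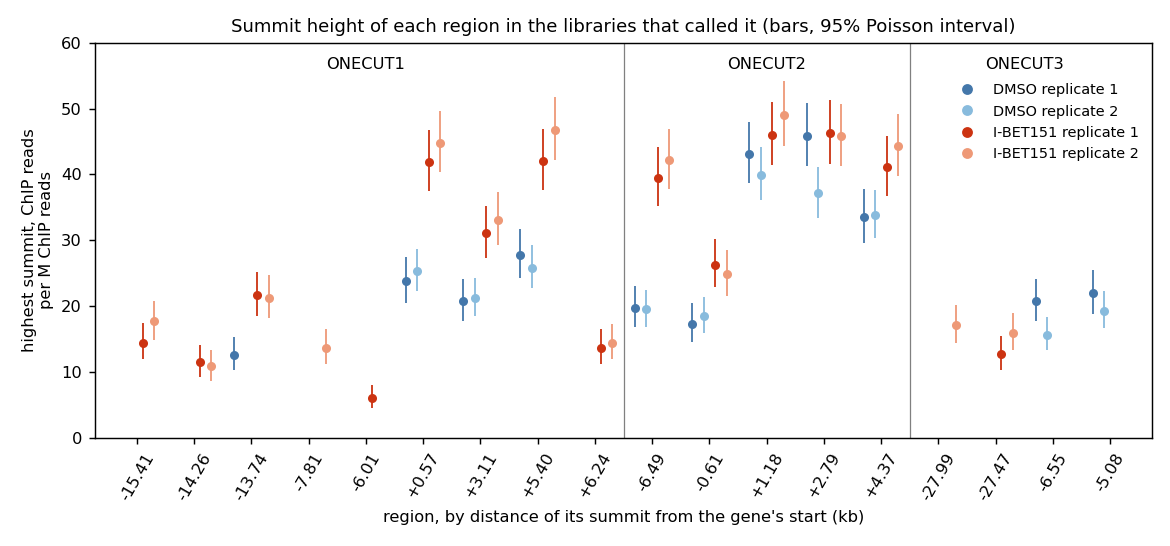
Highest summit of each of the 18 regions, in ChIP reads per M ChIP reads, for each library that called it, with regions placed in order along each locus and named by the distance of the summit from the gene's start in kb. Bars are 95% Poisson intervals and cover counting error only. At ONECUT1 the shared regions from +0.57 to +5.40 kb separate by group, at ONECUT2 the separation is widest at −6.49 kb, and at ONECUT3 no region has points of both groups.

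The heights can be read against the lists as a whole. The median summit of a list held 22.1 to 25.1 reads per M, and the 5th percentile lay between 6.10 and 8.46. In DMSO the ONECUT1 promoter block, at 23.7 and 25.3, was thus near the median of its lists of 24.2 and 22.1. In I-BET151 it stood well above the medians of 22.6 and 25.1. The ONECUT2 first-exon and +2.79 kb regions were high in all libraries, at 37.1 to 49.0, and the I-BET151 peaks gained at ONECUT1 and ONECUT3 were all below the median of their list. All 8 gained peaks lay above the 5th percentile of their list, and acetylation below the calling threshold in DMSO was not detectable from these lists.

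The 18 windows were searched on both strands for short motifs, namely ATTGAT for the family itself, TGTTTAC for FOXA, AGATAA for the GATA family, ACAATG for SOX, TAATTA for homeodomain factors such as PDX1, TGGGAA for RBPJ and TGANTCA for AP-1. No motif contains another whole. No window held the ONECUT letters, which occur in 0.616% of 15752 windows genome-wide and in 5.58% of 35116 RefSeq promoters of 250 bases. The GATA letters were found in 2 windows, both gained with I-BET151 and both shown above, 86 bases to the right of the summit at ONECUT1 +6.24 kb and 8 bases to its left at ONECUT3 −27.5 kb, and they occur in 1.24% of all windows. The homeodomain letters were found once, at ONECUT2 −0.61 kb (0.273% of all windows), and the RBPJ letters in 2 windows, at ONECUT2 +2.79 kb and ONECUT3 −28.0 kb (13.1%). The windows were rich in G and C, from 54.7 to 76.1% at the ONECUT loci against a median of 70.1% over all windows.

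Among protein-coding neighbours, the start of ATOSA lay inside the ONECUT1 window, 80.52 kb downstream of the ONECUT1 start, and that of ATP8B3 inside the ONECUT3 window, 58.77 kb downstream of the ONECUT3 start. The body of REXO1 reaches into the ONECUT3 window, with its start outside it. No peak of these windows lay downstream of ONECUT1 or ONECUT3, where these neighbours are. The genes most alike in covered length over the 4 libraries, by Euclidean distance and on other chromosomes, were BCAS3 (0.956 kb), TBX2 (1.45 kb) and SYMPK (1.87 kb) for ONECUT1. They were SEPTIN1 and ZNF48 (0.604 kb each, with identical values) and SYMPK (0.671 kb) for ONECUT2, and ALDH3B2 (0.122 kb), TMEM120A (0.198 kb) and TRIM14 (0.210 kb) for ONECUT3. BCAS3 and TBX2 both lie on chromosome 17, with 4.903 kb each in DMSO replicate 2, and SEPTIN1 and ZNF48 both on chromosome 16. Overlap of their windows was not checked, so each pair may count the same peaks. With 4 libraries this likeness is a description only.

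A list of 17 transcription factor genes that act with the ONECUT factors in pancreatic development was read the same way. In these windows 13 had a peak, of which 8 had both I-BET151 libraries above both DMSO libraries, 1 had both below and 4 overlapped, where 12.5% of all loci lay above and 44.4% below. The list was chosen with earlier results of these data known, so these counts are a description only. The median difference of the 13 was 0.534 kb, against 2.97 kb at ONECUT1 and 1.08 kb at ONECUT2. FOXA2, a pioneer factor of the endoderm, had 6.02 ± 0.54 kb covered with DMSO against 7.13 ± 0.01 kb with I-BET151 (SD, n = 2 each). PROX1, a homeobox factor of early pancreas and liver, had 2.66 ± 0.14 and 2.83 ± 0.01 kb. These genes lay in the same direction as ONECUT1 and ONECUT2. HNF4A, a nuclear receptor of liver, gut and pancreas, lay in the other direction, with 4.33 and 3.52 kb for DMSO against 2.85 and 2.94 kb for I-BET151. NEUROG3, the endocrine gene downstream of ONECUT1, had no peak in any library, like PTF1A, NKX2-2 and NEUROD1.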

How the data were processed

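H3K27ac ChIP-seq of 2 DMSO and 2 I-BET151 libraries was analysed, with groups and replicate numbers from the library titles. According to the study's methods and the submitters' processing notes, the authors aligned reads to hg38 with Bowtie2 2.2.5, removed duplicates and called peaks in each library with MACS2 2.1.2. The deposited lists give intervals, summits, the fold enrichment at the summit (a ratio over local background with a pseudocount of 1) and −log10 of p and q, all as the authors' caller wrote them. They were used here as written. Duplicate removal caps peak height, and the significance threshold hides weaker acetylation in shallower libraries.

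The lists hold no read counts. Whole ChIP reads at each summit, the local input level and library depths were solved from the fold and −log10 p with the Poisson model and 2.7e+09 bp genome size of MACS2. For depths, the shortest peak of each list was taken as the length to which reads were extended. It was 272 and 247 bp in DMSO replicates 1 and 2 and 254 and 249 bp in I-BET151 replicates 1 and 2. The lowest input level solved was taken as the genome-wide level. Both are assumptions, and reads per M scale with them. Between 99.85 and 99.94% of the peaks of each list, and all 55 at the ONECUT loci, were resolved. The solving of whole reads and of the scale between ChIP and input was tested on values simulated with the same formulas. Library depths and input levels were not part of that test. As a check of the build, 82.1 to 85.9% of each list's summits fell no more than 3 kb from a protein-coding start of GENCODE 44 on hg38, against 17.3 to 18.0% after a shift of 1 Mb.

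Covered length and number of peaks at the 3 loci, and mean log2 summit fold and reads per M at the regions of ONECUT1 and ONECUT2 called in all 4 lists, were compared by exact permutation (two-sided, 6 assignments of the 4 libraries). Members, gene lists and motifs were chosen with earlier results of these data known. Named were the members, all regions in their windows, neighbouring genes, 4 preselected genes of the 17-gene list, and the 3 genes most like each member. Some preselected genes and a motif are not reported here. RefSeq promoter sequences were matched for 2 of 3 members. Poisson intervals are at 95%. Alternatives were other windows (gene body, 10 and 100 kb), −log10 q of at least 5 or 10, the 12312 top-ranked peaks of each list, merging within 500 bp, 50% coverage, reads per M, a replicate block and leaving out each library. Python 3.11.15, NumPy 2.4.6, SciPy 1.17.1 and Matplotlib 3.10.9 were used.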

Additional observations from a re-analysis of the deposited data

Results flagged for a closer look

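Input libraries came without a peak list, and their level at each summit was worked out from the ChIP lists. At the ONECUT peaks the median local input level was 47.3 and 32.4 times the genome-wide input level in DMSO replicates 1 and 2, and 37.9 and 44.7 times in I-BET151 replicates 1 and 2. Over all peaks of the same lists it was 42.6, 37.8, 38.5 and 40.7 times. These values are listed because the input libraries were not compared themselves. They were solved from the same fold and −log10 p as the reads per M, so they are not independent of the peak comparison. Fold enrichment divides by this local level, and the part that it had in the differences between fold and reads per M at the ONECUT regions was not tested.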

How the results depend on the processing

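For 14 results, 123 alternatives were computed: 113 kept the direction (for region counts, stayed within 1.5 times), 10 moved and 0 reversed. Only the direction or count was compared, since no exact p here could fall below 0.05 in any setting. Size was not always kept: the covered-length difference was 1.24 kb (gene body) and 1.52 kb (10 kb, or −log10 q of at least 10) at ONECUT1, 0.128 kb (gene body) and 2.5 kb (100 kb) at ONECUT2, and −2.0 kb (100 kb) at ONECUT3, and the peak-number difference at ONECUT1 was 1.5 with −log10 q of at least 10. With −log10 q of at least 10, gained regions became 1 at ONECUT1 and 0 at ONECUT3, and the difference in peak number at ONECUT2 became 0.5. Merging within 500 bp left 0 gained regions at ONECUT1, and requiring 50% coverage gave 1 at ONECUT2. On the gene body alone, the covered-length difference at ONECUT3 was 0, there being no peak. The peaks added by 100 kb on either side were not described, and at ONECUT3 this window takes in the start of REXO1. Leaving out each library gave peak-number differences from −1 to 1 at ONECUT2 and from −1 to 0 at ONECUT3, and 1 to 2 gained regions at ONECUT3. The cause of these moves was not tested beyond the construction of each alternative. Summit fold had no value at ONECUT3, which had no shared region.

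The replicate block left the covered-length differences at 2.97, 1.08 and −0.858 kb at ONECUT1, ONECUT2 and ONECUT3, and the log2 fold differences at 0.43 and 0.23. It could not do otherwise, because each block holds a single library of each group. The mean of the paired differences then equals the difference of the group means. Its entries among the alternatives that kept the direction therefore say nothing about stability. Same-numbered libraries did not deviate together over the regions (correlation 0.0118 in calls and 0.0355 in log2 fold). These values cannot show whether such libraries shared a culture or a batch, which the labels do not say. With 2 libraries a group, no exact test could reach 0.05, and weak regions near the detection threshold are the least certain.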
